A study of Homo sapiens with 18 samples.

Results

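The response to the transcription factor Snail was compared between a pair of human mammary epithelial lines, HMLE and MCF10A. For each gene the response difference was the HMLE response, HMLE Snail minus HMLE vector, less the MCF10A response, MCF10A Snail minus MCF10A vector. It was taken from 12 of the 18 arrays of the study, chosen by their titles, for 18417 genes with 1 value each. The groups were HMLE cells expressing Snail, HMLE cells carrying the vector control, MCF10A cells expressing Snail and MCF10A cells carrying the vector control, with 3 arrays in each. HMLE (written HMLEC in one label) was made from human mammary epithelium with telomerase and SV40 early-region genes, whereas MCF10A became immortal in culture without an introduced gene. Both were labelled as normal breast epithelial cells, grown in the same serum-containing medium and harvested while still dividing. The expressing cells were selected as stable clones, and the labels do not give the number of clones behind each group, so a property of a clone and an effect of Snail cannot be told apart. They also do not say whether the 3 arrays were separate cultures, so p-values measure the spread between these arrays, which may be technical.

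Snail, encoded by SNAI1, is a zinc finger repressor that binds E-box sequences in the promoters of epithelial genes, that of E-cadherin among them. In epithelial-mesenchymal transition (EMT), cells give up adherens junctions, desmosomes and keratins and take up a fibroblast-like matrix and cytoskeleton. Snail usually represses directly, and its mesenchymal targets are thought to be reached largely through other factors such as the ZEB proteins.

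Levels are log2 array values, on which a difference of 1 is 2-fold. A value compares a gene with itself between arrays, and not with another gene. Differences are given ± SE from limma, with p adjusted over all 18417 genes. A gene rose, fell or differed where that p was under 0.05, and its response difference was called where it was also at least 2-fold. The array medians lay between 7.698 and 7.793 and replicates correlated at 0.990 to 0.997 across probe sets. In whole-culture RNA, fewer cells of a type and less RNA per cell cannot be told apart.

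SNAI1 reached nearly the same level in both lines. SNAI1 read 12.52, 12.54 and 12.53 in HMLE Snail arrays, against 7.40, 7.25 and 7.52 in HMLE vector arrays. It read 12.50, 12.41 and 12.54 in MCF10A Snail arrays, against 8.43, 8.36 and 8.17 in MCF10A vector arrays. The HMLE and MCF10A Snail arrays overlapped, with a gap of 0.04 (95% interval -0.15 to 0.23), while the HMLE vector arrays all lay below the MCF10A vector arrays, by 0.93. The SNAI1 response difference of 0.98 ± 0.13 (adjusted p = 7.35e-06) therefore equals, to within the end gap, the difference in starting level, and it fell just short of the 2-fold limit.

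The lines themselves were told apart by MTAP, a purine salvage enzyme at the locus deleted in MCF10A. MTAP averaged 9.83 ± 0.02 in HMLE Snail and 10.26 ± 0.04 in HMLE vector arrays (SD, n = 3 each). It averaged 6.02 ± 0.15 in MCF10A Snail and 5.98 ± 0.36 in MCF10A vector arrays, so all 12 arrays compared here stood on the side of their label. The 3 arrays labelled MCF10A Twist stood at 10.80 ± 0.03, against that label. They enter none of the differences, and only add to the estimate of spread. The fit without them, added after seeing the data, gave the same count of called genes, 1587.

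HMLE cells responded to Snail far more widely than MCF10A cells. With Snail, 4217 genes rose (22.9%) and 4569 fell (24.8%) in HMLE, while 1963 rose (10.7%) and 2210 fell (12%) in MCF10A. At least 2-fold, 1635 genes changed in HMLE (8.88%) and 329 in MCF10A (1.79%). Of these, 198 changed in both, which is 12.1% of the HMLE genes and 60.2% of the MCF10A genes, and 87.9% of the shared genes moved the same way. Across all 18417 genes the responses of the 2 lines, which share no arrays, correlated at 0.33.

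The response difference passed the adjusted p for 3671 genes that were higher in HMLE (19.9%) and 3724 that were lower (20.2%). Its median over all genes was 0.02. At least 2-fold, it was called for 1587 genes (8.62%), of which 843 were higher in HMLE (4.58%) and 744 lower (4.04%). For 1584 of the 1587, the 9 HMLE differences of a Snail and a vector array did not overlap the 9 MCF10A ones, which held for 40.4% of all genes. Values near the limit were common, with 238 called genes within 0.1 above the 2-fold limit and 294 genes that passed the adjusted p within 0.1 below it.

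**Figure D1:**
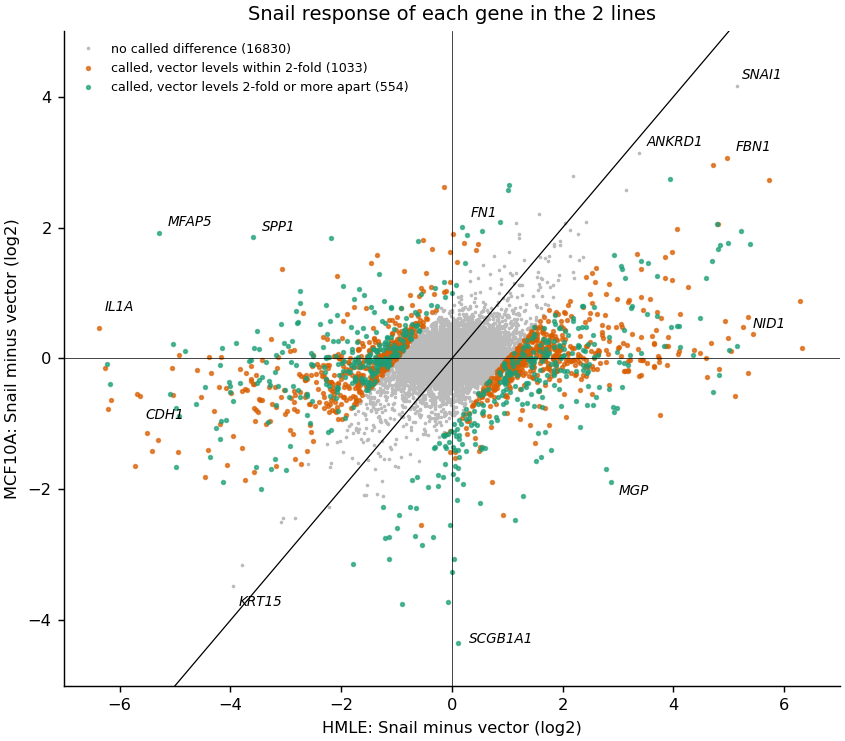
Snail minus vector in HMLE (horizontal, log2) against the same in MCF10A (vertical, log2) for each of 18417 genes, with genes called for the response difference in colour by their starting level and a line where the responses are equal. Most called genes spread along the horizontal axis, where MCF10A moved little. CDH1, IL1A and MFAP5 lie far to the left, NID1 far to the right, and ANKRD1 and KRT15 near the line.

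The called genes were split by whether the lines started from the same level. The Snail gap is HMLE Snail minus MCF10A Snail, and the vector gap is HMLE vector minus MCF10A vector. The response difference is the Snail gap less the vector gap, so these values share arrays and no correlation between them is given. Vector levels lay within 2-fold for 1033 of the called genes (65.1%, against 93.6% of all genes), which is called a like start here. A like start is not an equal one, and part of a difference can still lie in the vector gap. The Snail gap had quartiles of -1.94 and -0.74 in the 479 that were lower in HMLE. In the 554 that were higher they were 0.94 and 2.14. For the other 554 (34.9%) the vector levels were 2-fold or more apart, against 6.35% of all genes with a vector gap that also passed the adjusted p. In 339 of these (21.4% of the called genes, against 3.2% of all genes) the Snail levels met within 2-fold. In the rest the gap narrowed without closing (48 genes), widened (105) or changed sign (62). Of all genes, 1.07% narrowed, 1.75% widened and 0.337% changed sign by the same limits. Every gene whose gap changed sign in this way was called, since such a change always exceeds the 2-fold limit by arithmetic. Of all genes, 8.95% had a Snail gap that passed the adjusted p and 2-fold. For 239 called genes the 95% interval of the vector gap spanned the limit and left the start undecided. By the interval, 909 called genes had a like start, 270 met, 48 narrowed, 82 widened and 39 changed sign.

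**Figure D2:**
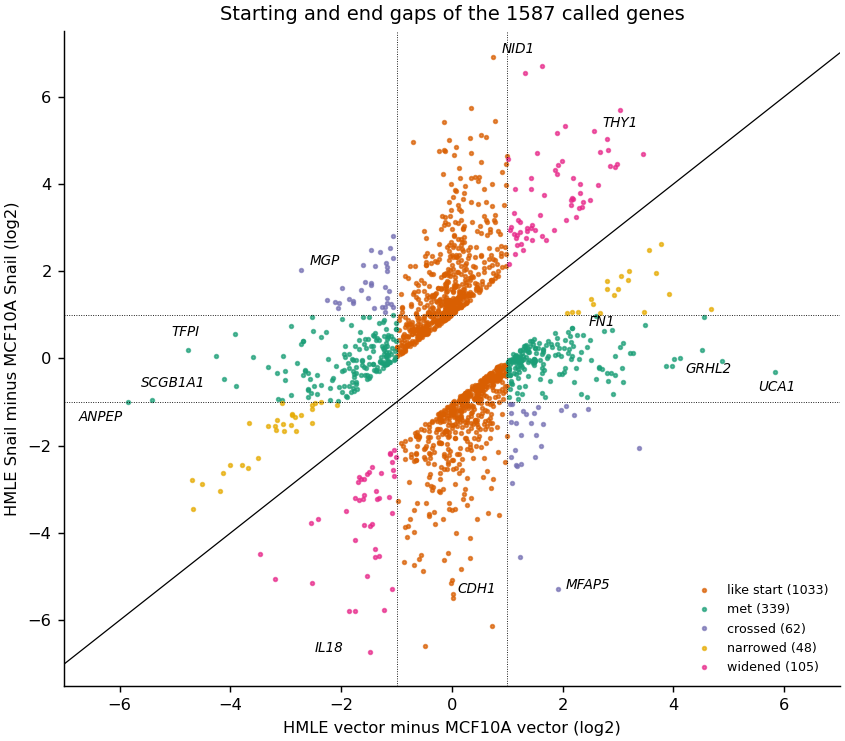
HMLE vector minus MCF10A vector (horizontal, log2) against HMLE Snail minus MCF10A Snail (vertical, log2) for the 1587 called genes, coloured by class, with dotted lines at 2-fold and a solid line where the gap is unchanged. The 1033 genes with a like start form the upright band between the vertical dotted lines, and the 339 that met form the flat arms beside it, with UCA1 and ANPEP near their ends.

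Starting levels were also counted by the direction of response. Among called genes that moved the same way in both lines but more in HMLE, 280 had a like start and 128 did not. Among those past the test in HMLE alone, 532 had a like start and 201 did not. Of the 28 that moved the same way but more in MCF10A, 3 had a like start, as did 18 of the 63 past the test in MCF10A alone. These counts describe classes cut from the same arrays and were not tested against each other.

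From a like start, 479 genes were lower in the HMLE response. Their median response was -1.48 in HMLE and -0.07 in MCF10A, from a median vector gap of 0.26. The 8 lowest were IL1A, MAL2, PNLIPRP3, DSC3, CDH3, CDH1, KRT5 and ANXA3. CDH1, the E-cadherin of adherens junctions, read 6.56, 6.51 and 6.80 in HMLE Snail arrays, against 12.20, 12.33 and 12.27 in HMLE vector arrays. The MCF10A arrays read 11.72, 11.66 and 11.72 with Snail, against 12.30, 12.21 and 12.29 with vector. The Snail arrays of the lines stood 5.07 apart with no overlap, while the vector arrays overlapped (gap interval -0.23 to 0.24). In HMLE, CDH1 fell by 5.64 ± 0.11 (adjusted p = 2.06e-16), in MCF10A it fell by 0.57 ± 0.11 (adjusted p = 0.00112), and the response difference was -5.07 ± 0.16 (adjusted p = 2.27e-13).

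The other cadherins of this group followed the same pattern. CDH3, P-cadherin of basal epithelia, read 7.39, 7.48 and 7.33 in HMLE Snail arrays against 13.11, 13.08 and 13.06 in HMLE vector arrays, and 12.60, 12.53 and 12.52 in MCF10A Snail arrays against 13.08, 13.05 and 13.14 in MCF10A vector arrays. Its vector gap was -0.01 and its response difference -5.14 ± 0.10 (adjusted p = 1.81e-15). The desmosomal cadherin DSC3 read 5.66, 5.78 and 6.05 in HMLE Snail arrays against 12.01, 12.10 and 11.99 in HMLE vector arrays. In MCF10A it read 11.25, 11.24 and 11.20 with Snail against 12.01, 11.93 and 12.09 with vector. Both genes fell in both lines, CDH3 by 5.68 and 0.55 and DSC3 by 6.20 and 0.78 in HMLE and MCF10A.

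Other genes of this group fell in HMLE, with an MCF10A change that did not pass the test (KRT5, MAL2, ANXA3) or was small (PNLIPRP3). KRT5, the basal keratin, read 9.22, 9.38 and 9.36 in HMLE Snail arrays against 14.22, 14.26 and 14.25 in HMLE vector arrays, and 14.15, 14.20 and 14.07 in MCF10A Snail arrays against 14.12, 14.07 and 14.06 in MCF10A vector arrays. The MCF10A change of 0.05 ± 0.08 (adjusted p = 0.733) had no counterpart to the HMLE fall of 4.92 ± 0.08. MAL2, a membrane protein of apical transport, read 7.47, 7.42 and 7.41 in HMLE Snail arrays against 13.66, 13.78 and 13.66 in HMLE vector arrays, while its MCF10A change was -0.15 ± 0.11. ANXA3, a calcium-dependent phospholipid-binding annexin, fell by 5.06 ± 0.09 in HMLE and changed by -0.15 ± 0.09 in MCF10A. The lipase-family gene PNLIPRP3 fell by 6.15 ± 0.20 in HMLE and by 0.64 ± 0.20 in MCF10A (adjusted p = 0.0283).

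The promoters of these genes were read for the E-box CAGGTG, in which Snail binding is known, on either strand (CACCTG on the other). RefSeq promoters of GRCh38.p14, from 250 bases before to 50 after the start, matched 14237 of the 18417 genes. Only the first listed promoter of a gene was read, although 5191 genes with a listed promoter have several. The motif was in 119 of 366 promoters (32.5%) of like-start genes lower in HMLE, in 62 of 431 (14.4%) of those higher, and in 19.6% of all measured genes. Of all 35116 promoters in the table, 20.6% held it. The share was 35.4% among genes that fell 2-fold in HMLE, 38.6% among those that fell in MCF10A and 50% among the 72 that fell in both. It was 36.6% among genes that fell 2-fold in HMLE with no called response difference. A match describes the letters and is not a binding site.

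The sequences of 7 promoters are printed as chosen examples, 2 of them without the motif, each 5′ to 3′ on the gene's strand with the motif in capitals. The choice did not follow the size of the difference, and MAL2, PNLIPRP3 and DSC3 are not among them. How often the motif occurs in the printed promoters therefore does not describe any class of genes. KRT5 (chr12:52520345-52520644, minus strand) has it at -130, ITGA6 (chr2:172427086-172427385, plus) at -136 and -46, and ANXA3 (chr4:78551520-78551819, plus) at -68 and 10 relative to the start. PATJ (chr1:61742230-61742529, plus) has it at -171, -30 and 10, and ITGB6 (chr2:160200223-160200522, minus) at -70. IL1A (chr2:112784444-112784743, minus) and NID1 (chr1:236065041-236065340, minus) have none in this window. For IL1A and ITGA6, 2 promoters are listed, and only the first was read. No promoter of CDH1, CDH3, EPCAM or MFAP5 was among those listed, so theirs were not read for the motif.
KRT5: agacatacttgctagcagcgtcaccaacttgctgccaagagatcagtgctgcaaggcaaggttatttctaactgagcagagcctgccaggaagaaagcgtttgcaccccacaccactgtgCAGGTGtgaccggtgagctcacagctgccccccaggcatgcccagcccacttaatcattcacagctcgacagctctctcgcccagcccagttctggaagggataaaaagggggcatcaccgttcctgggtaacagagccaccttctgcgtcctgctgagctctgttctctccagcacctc
ITGA6: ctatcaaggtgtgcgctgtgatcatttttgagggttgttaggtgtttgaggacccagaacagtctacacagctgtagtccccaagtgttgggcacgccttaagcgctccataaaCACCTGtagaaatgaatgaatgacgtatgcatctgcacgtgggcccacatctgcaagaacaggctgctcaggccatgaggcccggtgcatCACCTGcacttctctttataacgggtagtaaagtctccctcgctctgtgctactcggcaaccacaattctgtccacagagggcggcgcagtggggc
ANXA3: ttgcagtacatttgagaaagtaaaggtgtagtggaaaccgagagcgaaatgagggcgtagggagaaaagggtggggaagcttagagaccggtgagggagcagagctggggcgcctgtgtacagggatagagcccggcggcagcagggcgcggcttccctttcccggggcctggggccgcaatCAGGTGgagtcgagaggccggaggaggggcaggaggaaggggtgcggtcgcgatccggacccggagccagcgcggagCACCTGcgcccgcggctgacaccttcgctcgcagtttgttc
PATJ: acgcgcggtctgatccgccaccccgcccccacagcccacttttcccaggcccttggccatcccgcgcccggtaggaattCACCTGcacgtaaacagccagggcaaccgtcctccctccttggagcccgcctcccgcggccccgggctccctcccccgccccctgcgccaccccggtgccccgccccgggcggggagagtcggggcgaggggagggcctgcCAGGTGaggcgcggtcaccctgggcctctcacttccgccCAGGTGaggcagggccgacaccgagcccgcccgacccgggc
ITGB6: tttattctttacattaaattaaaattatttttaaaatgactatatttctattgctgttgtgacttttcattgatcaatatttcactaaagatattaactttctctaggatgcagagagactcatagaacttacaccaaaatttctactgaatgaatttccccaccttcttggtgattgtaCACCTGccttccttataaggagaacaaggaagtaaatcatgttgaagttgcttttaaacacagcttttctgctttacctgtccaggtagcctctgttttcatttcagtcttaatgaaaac
IL1A: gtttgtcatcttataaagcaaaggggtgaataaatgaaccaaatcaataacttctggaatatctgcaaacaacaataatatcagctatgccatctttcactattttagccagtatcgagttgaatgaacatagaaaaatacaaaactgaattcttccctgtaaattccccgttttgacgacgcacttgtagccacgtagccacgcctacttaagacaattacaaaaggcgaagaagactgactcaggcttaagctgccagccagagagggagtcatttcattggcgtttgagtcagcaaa
NID1: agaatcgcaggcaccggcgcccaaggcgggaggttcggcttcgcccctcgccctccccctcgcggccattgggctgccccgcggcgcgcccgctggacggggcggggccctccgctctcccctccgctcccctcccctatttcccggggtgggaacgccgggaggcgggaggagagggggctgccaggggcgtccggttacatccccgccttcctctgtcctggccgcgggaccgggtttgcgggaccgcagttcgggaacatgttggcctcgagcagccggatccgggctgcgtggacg

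ITGA6, the integrin chain that pairs with ITGB4 in hemidesmosomes, read 8.76, 8.75 and 8.67 in HMLE Snail arrays against 13.31, 13.33 and 13.33 in HMLE vector arrays. In MCF10A it read 12.84, 12.85 and 12.81 with Snail against 12.96 to 13.05 with vector. PATJ, a scaffold of the Crumbs polarity complex with 3 motif matches, fell by 2.66 ± 0.08 in HMLE and by 0.34 ± 0.08 in MCF10A (adjusted p = 0.00779). Both promoters held motif matches, and both genes moved less in MCF10A. SNAI1 was measured as RNA only, and the cause of the smaller change was not tested.

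From a like start, 554 genes were higher in the HMLE response, with quartiles of the response at 1.09 and 2.15 in HMLE and at -0.19 and 0.19 in MCF10A. The highest were NID1, TMPRSS15, LIN7A, AK5, LRRTM3, PRRX1, BGN and AGTR1, of which only NID1 and BGN encode matrix proteins. NID1, the basement membrane linker nidogen, read 13.10, 13.02 and 13.01 in HMLE Snail arrays against 6.60, 6.91 and 6.65 in HMLE vector arrays. In MCF10A arrays NID1 read 5.98, 6.35 and 6.09 with Snail against 5.82, 5.89 and 6.23 with vector, and those groups overlapped. The HMLE rise of 6.32 ± 0.11 (adjusted p = 2.96e-17) stood against an MCF10A change of 0.16 ± 0.11 (adjusted p = 0.353), a response difference of 6.17 ± 0.15 (adjusted p = 1.31e-14). Its vector gap of 0.74 lay inside the 2-fold limit.

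BGN, the matrix proteoglycan biglycan, read 13.59, 13.58 and 13.63 in HMLE Snail arrays against 8.69, 8.34 and 8.68 in HMLE vector arrays. In MCF10A it read 8.90, 8.79 and 8.80 with Snail against 8.72, 8.70 and 8.72 with vector, a change of 0.11 ± 0.08 that did not pass the test. PRRX1, a homeobox factor linked to mesenchymal states, read 11.11 in each HMLE Snail array against 6.20, 6.40 and 6.26 in HMLE vector arrays, and 6.13, 6.27 and 6.68 in MCF10A Snail arrays against 6.64, 6.66 and 6.27 in MCF10A vector arrays. The MCF10A arrays of PRRX1 overlapped and all lay near the HMLE vector level. COL1A2, a chain of type I collagen, rose by 4.60 ± 0.08 in HMLE and changed by 0.01 ± 0.08 in MCF10A.

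Genes better known from other tissues were also among the highest rises. LIN7A, a polarity and synaptic scaffold, rose by 5.35 ± 0.10 in HMLE and changed by -0.22 ± 0.10 in MCF10A (adjusted p = 0.133). AK5, an adenylate kinase, rose by 6.29 ± 0.21 in HMLE and by 0.88 ± 0.21 in MCF10A. LRRTM3, a leucine-rich repeat protein of neurons, rose by 5.44 in HMLE and 0.37 in MCF10A. The angiotensin receptor AGTR1 rose by 4.60 ± 0.13 in HMLE and changed by -0.29 ± 0.13 in MCF10A. All 4 stood low, between 4.57 and 6.92, in every array other than those of HMLE Snail.

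**Figure D3:**
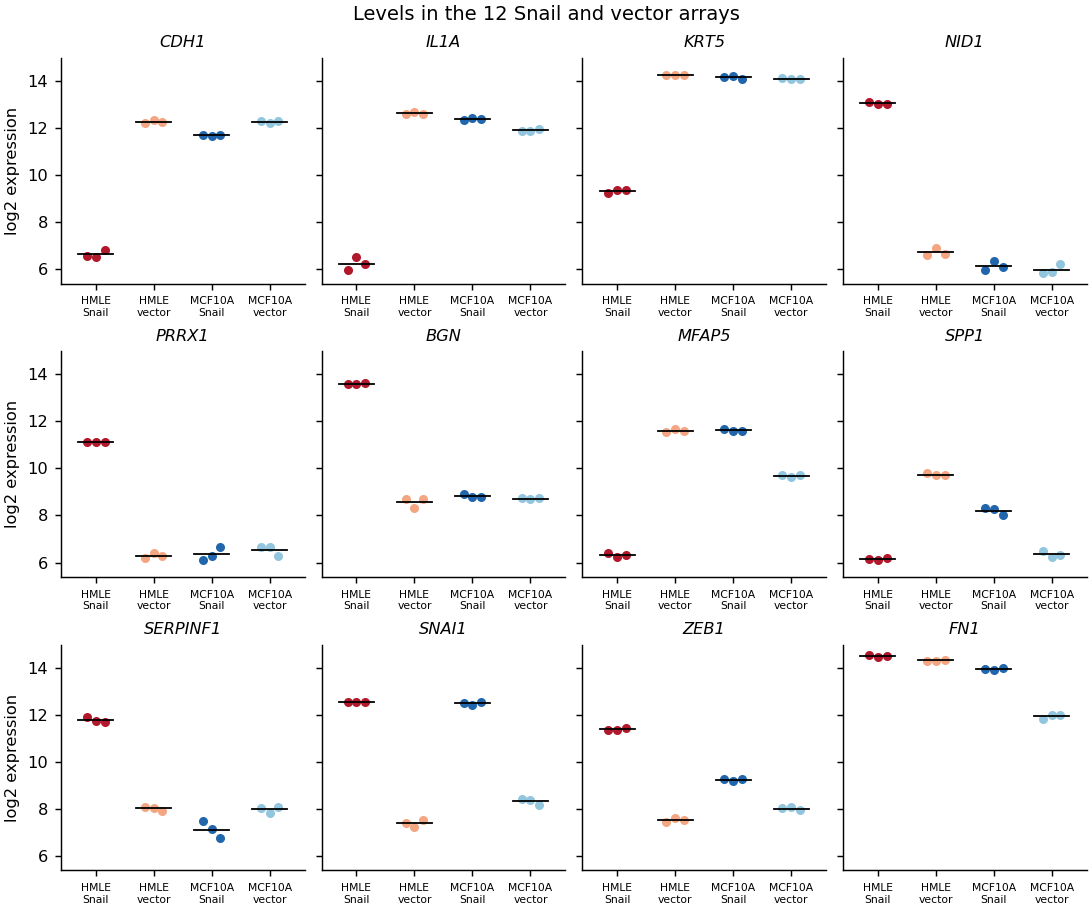
Log2 expression of 12 genes in each of the 12 arrays, as points with the group mean as a bar, for HMLE Snail, HMLE vector, MCF10A Snail and MCF10A vector from left to right. CDH1, IL1A and KRT5 are low in HMLE Snail arrays alone, and NID1, PRRX1 and BGN are high there alone, while SNAI1 is equally high in both Snail groups and FN1 is lowest in MCF10A vector arrays.

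Some genes moved in opposite directions. By the adjusted p in both lines, 353 called genes did so, of which 160 fell in HMLE and rose in MCF10A and 193 rose in HMLE and fell in MCF10A. In 349 of them all 9 array differences of each line lay on their own side of 0. Selection by the adjusted p makes this likely, so it is no separate support. Both responses reached 2-fold in 24, and the MCF10A response alone or with the other in 46. A like start was found for 198 of the 353, the others having unequal vector levels, while 65.1% of all called genes had one. The 353 were 22.2% of the called genes, and a call on a large response difference itself favours opposite directions. Whether or not a test was passed, the responses of the lines had the same sign in 55.3% of all genes. The share of all genes that passed the test in opposite directions was not counted.

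MFAP5, a protein of matrix microfibrils, gave the lowest response difference of all genes. It read 6.39, 6.26 and 6.32 in HMLE Snail arrays against 11.55, 11.68 and 11.59 in HMLE vector arrays. In MCF10A it read 11.66, 11.60 and 11.58 with Snail against 9.71, 9.64 and 9.74 with vector. The Snail-expressing MCF10A cells thus stood at the level of the HMLE vector cells. MFAP5 fell by 5.28 ± 0.07 in HMLE and rose by 1.92 ± 0.07 in MCF10A, a response difference of -7.20 ± 0.10 (adjusted p = 2.22e-17). Since it ended 5.29 lower in HMLE after beginning 1.91 higher, the unequal start alone does not give the difference.

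IL1A, the epithelial alarm cytokine interleukin 1 alpha, had a like start. It read 5.98, 6.51 and 6.22 in HMLE Snail arrays against 12.57, 12.68 and 12.60 in HMLE vector arrays, and 12.34, 12.42 and 12.35 in MCF10A Snail arrays against 11.88, 11.86 and 11.96 in MCF10A vector arrays. The groups did not overlap in either line. IL1A fell by 6.38 ± 0.10 in HMLE and rose by 0.47 ± 0.10 in MCF10A (adjusted p = 0.0024), a response difference of -6.85 ± 0.14. SPP1, the secreted phosphoprotein osteopontin, fell by 3.58 ± 0.09 in HMLE and rose by 1.85 ± 0.09 in MCF10A. PLD5, of the phospholipase D family, fell by 3.06 ± 0.16 and rose by 1.37 ± 0.16 in the same order. The potassium channel gene KCNJ15 fell by 2.19 ± 0.11 in HMLE and rose by 1.85 ± 0.11 in MCF10A, where it met the HMLE Snail level.

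In the other direction, TMPRSS15, the intestinal protease enteropeptidase, read 9.88, 9.71 and 9.67 in HMLE Snail arrays against 4.89, 4.35 and 4.71 in HMLE vector arrays. Its MCF10A arrays all lay at 5.48 or below, and its MCF10A fall of 0.57 ± 0.15 (adjusted p = 0.0102) is a change among dim values. SERPINF1, the secreted factor PEDF, read 11.90, 11.72 and 11.69 in HMLE Snail arrays against 8.10, 8.04 and 7.91 in HMLE vector arrays, and 7.46, 7.12 and 6.75 in MCF10A Snail arrays against 8.03, 7.82 and 8.08 in MCF10A vector arrays. With a vector gap of 0.04, it rose by 3.76 ± 0.13 in HMLE and fell by 0.86 ± 0.13 in MCF10A. MGP, an inhibitor of matrix calcification, rose by 2.86 ± 0.17 in HMLE and fell by 1.88 ± 0.17 in MCF10A. Its lines exchanged places, with a Snail gap of 2.03, against a vector gap of -2.72. ID2, which blocks basic helix-loop-helix factors, rose by 2.78 ± 0.14 in HMLE and fell by 1.69 ± 0.14 in MCF10A, and its Snail levels met within 0.55.

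In the 339 genes that met, vector levels were at least 2-fold apart and Snail levels were within 2-fold, which does not make them equal. Of these, 52 rose in HMLE and fell in MCF10A, and 48 fell in HMLE and rose in MCF10A. In 133 of them HMLE alone fell 2-fold, in 78 HMLE alone rose, in 39 MCF10A alone fell, in 7 MCF10A alone rose, in 23 both moved 2-fold and in 59 neither did. Among all called genes that were lower in the HMLE response and began lower in MCF10A, 61 of 222 had an MCF10A vector mean below 6.96, the 25th percentile of all genes. Among those that were higher and began lower in HMLE, 82 of 227 had an HMLE vector mean below it. RMA compresses differences at such dim levels, so a fall there would be understated.

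Genes that met and were lower in the HMLE response began higher in HMLE than in MCF10A, by the definition of the class. GRHL2, a transcription factor that maintains epithelial identity, read 6.01, 5.97 and 6.09 in HMLE Snail arrays against 10.19, 10.22 and 10.23 in HMLE vector arrays. In MCF10A arrays GRHL2 read 6.07, 6.04 and 5.89 with Snail against 6.07, 6.06 and 6.16 with vector. The 3 dim groups overlapped, so the GRHL2 difference of -4.09 ± 0.09 (adjusted p = 3.07e-15) came with a gene already low in the MCF10A vector cells. The long non-coding RNA UCA1 read 6.43, 6.38 and 6.42 in HMLE Snail arrays against 12.61, 12.68 and 12.63 in HMLE vector arrays, and 6.78, 6.62 and 6.75 in MCF10A Snail arrays against 6.67, 6.64 and 7.11 in MCF10A vector arrays. In HMLE the neural adhesion gene CNTN1 fell by 4.82 ± 0.08 and the cornified envelope gene LCE3D fell by 3.89 ± 0.10, to Snail gaps of -0.06 and -0.16. SLC7A8, an amino acid transporter, fell by 4.15 ± 0.06 in HMLE to a Snail gap of 0.20, from a vector gap of 4.51. FST, the activin antagonist follistatin, fell by 4.01 ± 0.12 in HMLE and 0.42 ± 0.12 in MCF10A, leaving a Snail gap of 0.95.

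Other genes that met rose in HMLE toward a higher MCF10A level. TFPI, the inhibitor of the tissue factor pathway of coagulation, read 10.93, 10.63 and 10.77 in HMLE Snail arrays against 5.55, 5.80 and 5.53 in HMLE vector arrays. The MCF10A arrays of TFPI read 10.58, 10.62 and 10.52 with Snail against 10.40, 10.40 and 10.36 with vector. ANPEP, the membrane aminopeptidase N, rose by 5.00 ± 0.05 in HMLE and changed by 0.14 ± 0.05 in MCF10A, where it was at 13.36, 13.33 and 13.29 in vector arrays, and its Snail gap was -0.99, just inside the limit. The lipid transporter family gene ABCA6 rose by 4.36 ± 0.11 in HMLE to a Snail gap of 0.05. DCN, the proteoglycan decorin, read 11.15, 11.08 and 11.20 in HMLE Snail arrays against 5.65, 5.81 and 5.82 in HMLE vector arrays, and 11.06, 11.15 and 11.11 in MCF10A Snail arrays against 9.36, 9.34 and 9.38 in MCF10A vector arrays. DCN rose in both lines, by 5.38 and 1.75, to Snail levels that overlapped and lay above the MCF10A vector level.

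MCF10A was the line that moved for a smaller set. SCGB1A1, a secretoglobin of airway secretory cells, read 6.97, 6.96 and 6.94 in HMLE Snail arrays against 6.94, 6.88 and 6.73 in HMLE vector arrays, and 7.96, 7.74 and 8.03 in MCF10A Snail arrays against 12.28, 12.16 and 12.33 in MCF10A vector arrays. It changed by 0.10 ± 0.10 in HMLE, where it was low throughout, and fell by 4.35 ± 0.10 in MCF10A (adjusted p = 3.04e-14). KLK7, a serine protease of stratified epithelia, fell by 0.90 ± 0.09 in HMLE and by 3.75 ± 0.09 in MCF10A. ELF3, an epithelial ETS factor, read 6.59, 6.54 and 6.70 in HMLE Snail arrays against 7.21, 7.09 and 7.16 in HMLE vector arrays, and 6.93, 6.99 and 7.07 in MCF10A Snail arrays against 9.83, 9.91 and 9.82 in MCF10A vector arrays. CRABP2, which carries retinoic acid, and TCN1, which binds vitamin B12, fell by 0.35 and 0.67 in HMLE, where they started 2.65 and 2.43 lower, and by 2.72 and 2.71 in MCF10A.

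Of the 8 genes that rose in both lines and more in MCF10A, 5 began at least 2-fold lower there, 2 had a like start and 1 began higher there. Of the 15 called genes that were lower in the response difference and passed the test in MCF10A alone, 10 had a like start. FN1, the matrix protein fibronectin, read 14.53, 14.43 and 14.49 in HMLE Snail arrays against 14.29, 14.29 and 14.31 in HMLE vector arrays. The MCF10A arrays of FN1 read 13.93, 13.92 and 13.96 with Snail against 11.82, 11.98 and 11.99 with vector. FN1 rose by 0.18 ± 0.05 in HMLE (adjusted p = 0.00615), where the vector arrays already stood at 14.29 or above, and by 2.01 ± 0.05 in MCF10A. MAP2, a microtubule-associated protein, rose by 1.02 ± 0.08 in HMLE and 2.65 ± 0.08 in MCF10A, with a Snail gap of -0.44 against a vector gap of 1.19. LHFPL6 rose by 0.54 ± 0.07 in HMLE and 1.94 ± 0.07 in MCF10A, from a vector gap of 3.00. The zinc finger gene ZNF711 began higher in MCF10A (vector gap -1.68) and rose by 1.01 ± 0.17 in HMLE and 2.57 ± 0.17 in MCF10A.

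**Figure D4:**
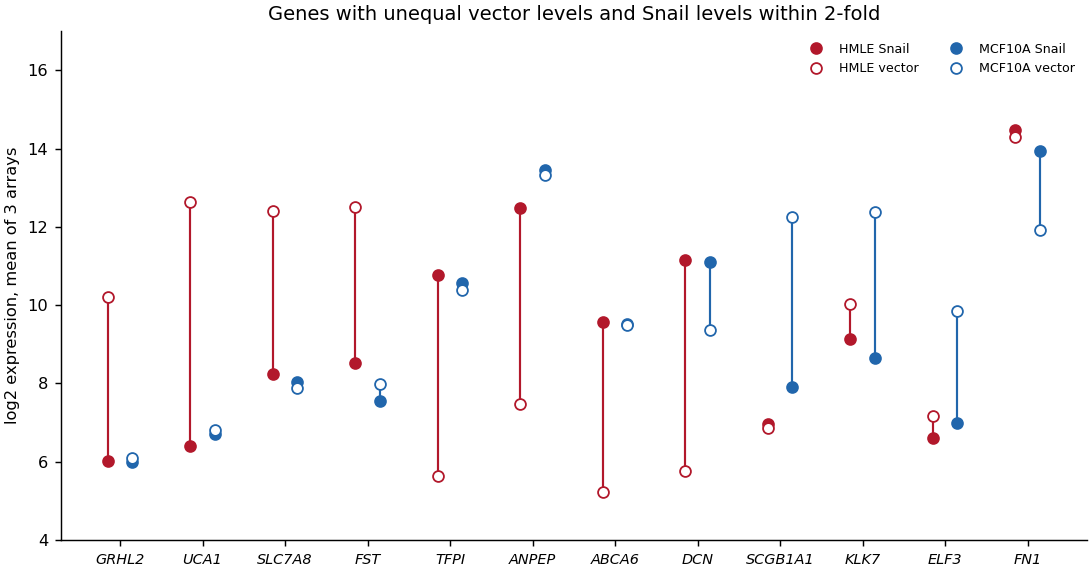
Mean log2 expression of 3 arrays for 12 genes with unequal vector levels, with HMLE in red and MCF10A in blue, filled circles for Snail, open circles for vector, and a line joining them. In GRHL2, UCA1, SLC7A8 and FST the HMLE value falls to within 2-fold of the MCF10A Snail level, in TFPI, ANPEP, ABCA6 and DCN it rises to within 2-fold of it, and in SCGB1A1, KLK7, ELF3 and FN1 the MCF10A value moves further.

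Where a gap narrowed, the Snail levels stayed at least 2-fold apart. INHBA, the activin A subunit, read 9.69, 9.67 and 9.70 in HMLE Snail arrays against 12.58, 12.55 and 12.36 in HMLE vector arrays, and 8.58, 8.56 and 8.51 in MCF10A Snail arrays against 7.73, 7.83 and 7.90 in MCF10A vector arrays. It fell in HMLE and rose in MCF10A, and its gap fell to 1.14 with Snail, against 4.68 with vector. The lysophosphatidate receptor LPAR3 and the cation channel MCOLN3 fell by 2.86 and 2.14 in HMLE. RANBP17, a nuclear transport receptor, and IFITM2, an antiviral membrane protein, rose by 2.55 and 1.55 in HMLE toward the higher MCF10A levels. SELENOP, which carries selenium in plasma, changed by 0.08 ± 0.09 in HMLE and fell by 1.84 ± 0.09 in MCF10A, toward the low HMLE level.

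A widened gap means that a difference between the vector groups was larger, with the same sign, between the Snail groups. IL18, an epithelial cytokine, read 5.13, 5.24 and 5.11 in HMLE Snail arrays against 10.12, 10.22 and 10.27 in HMLE vector arrays, and 11.83, 11.90 and 11.94 in MCF10A Snail arrays against 11.61, 11.68 and 11.73 in MCF10A vector arrays. Its gap was -6.73 with Snail, against -1.47 with vector. DSG3, a desmosomal cadherin, fell by 4.98 ± 0.11 in HMLE and 0.76 ± 0.11 in MCF10A. MPZL2, an epithelial adhesion protein, fell by 5.08 ± 0.20 in HMLE and changed by -0.54 ± 0.20 in MCF10A (adjusted p = 0.0687). Upward, the small nucleolar RNAs SNORD114-3 and SNORD113-4 rose by 4.72 ± 0.14 and 4.83 ± 0.17 in HMLE, from vector gaps of 1.32 and 1.62. They belong to clusters of similar copies, which the probes may not fully separate. ZNF667-AS1, an antisense RNA, rose by 4.06 ± 0.16 in HMLE and 0.50 ± 0.16 in MCF10A.

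In the 62 genes whose gap changed sign, the order of the lines was reversed. ITGB6, an epithelial integrin chain, read 6.11, 6.10 and 6.17 in HMLE Snail arrays against 12.31, 12.32 and 12.25 in HMLE vector arrays, and 10.72, 10.68 and 10.64 in MCF10A Snail arrays against 11.08, 11.05 and 11.08 in MCF10A vector arrays. It fell in both lines, and its gap was -4.56 with Snail, against 1.22 with vector. The potassium channel gene KCNK2 rose by 4.12 ± 0.08 in HMLE and changed by 0.18 ± 0.08 in MCF10A. PCDH18, a protocadherin, rose by 4.48 ± 0.10 in HMLE and by 0.62 ± 0.10 in MCF10A.

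Gene lists were described by their counts at the adjusted p, to be read against 19.9% of all genes higher and 20.2% lower in the response difference. At 2-fold or more, 4.58% of all genes were higher and 4.04% lower. Members at 2-fold mostly had a like start in the desmosome (10, against 3 unequal), junction (7 against 1) and collagen lists (7 against 0). Most had an unequal start among epithelial regulators (5, against 1 alike) and matrix-modifying enzymes (8 against 2). So did TGF-beta and BMP genes (5 against 0) and interferon genes (4 against 1). Adherens and tight junction genes were mostly lower, with 13 of 16 measured members lower, 1 higher and a median of -0.98. In the lines themselves, 14 of the 16 fell in HMLE and 12 in MCF10A, so the difference was mainly one of size. EPCAM, an epithelial adhesion protein, fell by 5.72 ± 0.11 in HMLE and 1.65 ± 0.11 in MCF10A from a vector gap of 0.07, and its other probe set gave a response difference of -5.02, against -4.07 here. The tight junction scaffold TJP3 was the member that was higher, since it changed by -0.14 in HMLE and fell by 1.12 in MCF10A. CLDN7, a claudin, fell in both lines and started 3.46 lower in HMLE.

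Desmosome and hemidesmosome genes had 13 of 16 members lower, all 13 by 2-fold or more, and a median of -2.03. Of the 16 measured, 14 fell in HMLE and 10 in MCF10A. The hemidesmosome chain ITGB4 and the laminin chain LAMB3 fell by 3.26 and 3.09 in HMLE and rose by 0.29 and 0.53 in MCF10A. The linker DST was higher, rising by 1.25 in HMLE and 0.40 in MCF10A, and the plaque protein PPL fell by 0.89 in HMLE and 0.90 in MCF10A, a difference of 0.01 (95% interval -0.25 to 0.26). Basal keratins were lower in 4 of 5 members, KRT14 by 4.19, but KRT15 fell by 3.95 in HMLE and 3.48 in MCF10A, a difference of -0.47 ± 0.17 (adjusted p = 0.0353) that lost the threshold in 8 alternatives. Luminal keratins were lower in 4 of 5, with KRT18 falling by 2.66 in HMLE and 0.34 in MCF10A.

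Epithelial transcription and splicing regulators split between the lines, with 7 of 13 lower and 3 higher. EHF, an epithelial ETS factor, fell by 4.92 ± 0.12 in HMLE and 0.87 ± 0.12 in MCF10A, and the splicing regulator ESRP2 by 3.20 and 0.44. GRHL1 changed by -0.24 in HMLE and fell by 1.29 in MCF10A. GATA3, a luminal factor, rose by 2.40 ± 0.07 in HMLE and changed by 0.12 ± 0.07 in MCF10A. Epithelial surface, trafficking and protease genes were lower in 14 of 19 and higher in 2, all of these by 2-fold or more, with a median of -2.36. They fell in both lines for the most part, 18 in HMLE and 14 in MCF10A. RAB25, a small GTPase of apical recycling, read 5.90, 5.99 and 6.10 in HMLE Snail arrays against 10.45, 10.39 and 10.27 in HMLE vector arrays, and 6.17, 6.07 and 6.39 in MCF10A Snail arrays against 7.66, 7.58 and 7.88 in MCF10A vector arrays, so its Snail levels met. The mucin MUC1 rose by 1.03 in HMLE, where it started 4.67 lower.

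Among EMT transcription factors, 7 of 11 were higher in the HMLE response and 3 lower, with a median of 0.88. The 7 include SNAI1, the introduced gene, whose difference lay in its vector levels. ZEB1, a repressor of epithelial genes, read 11.37, 11.36 and 11.44 in HMLE Snail arrays against 7.46, 7.63 and 7.53 in HMLE vector arrays, and 9.27, 9.18 and 9.27 in MCF10A Snail arrays against 8.04, 8.07 and 7.93 in MCF10A vector arrays. It rose in both lines and the HMLE Snail arrays stood apart from the rest, with a response difference of 2.62 ± 0.08 (adjusted p = 3.86e-13). ZEB2 rose by 3.70 ± 0.07 in HMLE and 1.25 ± 0.07 in MCF10A, though its dimmer second probe set gave a response difference of -0.14 in place of 2.44. FOXC2 rose by 1.42 in HMLE alone. TWIST1 rose by 1.12 in HMLE and 0.24 in MCF10A, below a 2-fold difference. SNAI2, the Snail relative Slug, fell by 0.65 in HMLE and changed by 0.04 in MCF10A.

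Collagens were higher in 7 of 13 and lower in 4, and rose in both lines for the most part (11 in HMLE, 9 in MCF10A). COL3A1 rose by 3.66 in HMLE and changed by -0.14 in MCF10A, while COL8A1 and COL12A1 rose less in HMLE, by 0.47 and 0.77, than in MCF10A, by 1.76 and 1.57. Matrix glycoproteins and proteoglycans were higher in 14 of 22, with a median of 1.05, and 17 rose in each line. FBN1, the microfibril protein fibrillin, read 12.39, 12.40 and 12.52 in HMLE Snail arrays against 7.46, 7.60 and 7.35 in HMLE vector arrays, and 11.06, 10.85 and 11.04 in MCF10A Snail arrays against 7.92, 7.90 and 7.92 in MCF10A vector arrays. It rose strongly in both lines, by 4.97 ± 0.07 and 3.07 ± 0.07. The 4 lower members were MFAP5, TGFBI, FN1 and THBS1. TGFBI, a cell adhesion protein of the matrix, fell by 2.68 ± 0.06 in HMLE and rose by 0.70 ± 0.06 in MCF10A from a vector gap of -0.06.

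Matrix-modifying enzymes and protease inhibitors were higher in 10 of 18 and lower in 5. LOX, a collagen cross-linking oxidase, rose by 2.98 ± 0.06 in HMLE to within 0.90 of MCF10A, where it changed by 0.09. PLAT, a plasminogen activator, rose by 2.61 in HMLE and fell by 0.59 in MCF10A, and the protease MMP9 fell by 2.91 in HMLE alone. Mesenchymal adhesion and cytoskeleton genes were higher in 14 of 18 and lower in 2, with a median of 0.79. VIM, the intermediate filament vimentin, rose by 1.44 in HMLE and 0.44 in MCF10A, a difference of 1.00 ± 0.06 that fell just under the limit. CDH2, N-cadherin, rose by 1.17 and 0.61, and the smooth muscle actin ACTA2 rose by 2.09 in HMLE and changed by 0.06 in MCF10A. THY1 and CDH11 rose by 2.46 and 2.27 in HMLE, where they started 2.56 and 2.67 higher.

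Growth factor genes of mesenchymal cells were higher in 10 of 16 and lower in 4, with a median of 1.13. The receptor PDGFRB read 11.09, 11.23 and 11.15 in HMLE Snail arrays against 7.49, 7.34 and 7.71 in HMLE vector arrays, and 7.63, 7.91 and 7.75 in MCF10A Snail arrays against 7.43, 7.57 and 7.59 in MCF10A vector arrays. From a vector gap of -0.02, only the HMLE change passed the test (3.64 ± 0.09, against 0.23 ± 0.09 in MCF10A). The collagen receptor DDR2 rose by 3.90 in HMLE and 0.32 in MCF10A, and TGFBR3, a TGF-beta co-receptor, by 3.83 in HMLE alone. FGFR1 rose by 2.37 ± 0.06 in HMLE and fell by 0.25 ± 0.06 in MCF10A, while the epithelial receptor FGFR2 fell by 2.32 in HMLE alone. EGF family genes were lower in 5 of 10 and higher in 2. EGFR fell by 0.55 in HMLE and rose by 0.50 in MCF10A, and the ligand TGFA fell by 3.49 and 0.62.

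Interleukin 1 family and epithelial cytokine genes were lower in 13 of 19 and higher in 1, with a median of -1.23. They fell in HMLE (12 of 19) and rose in MCF10A (10 of 19). ICAM1, an adhesion receptor for leukocytes, read 9.55, 9.46 and 9.47 in HMLE Snail arrays against 10.01, 10.07 and 9.95 in HMLE vector arrays, and 11.92, 11.79 and 11.74 in MCF10A Snail arrays against 10.10, 9.93 and 9.99 in MCF10A vector arrays. The Snail groups lay on either side of the vector groups, which overlapped. IL1B fell in both lines, by 3.71 and 0.48, PTGS2 fell by 2.88 in HMLE alone, and the receptor IL1R1 rose by 1.57 in HMLE alone. Among TGF-beta and BMP pathway genes, 11 of 18 were lower and 3 higher. BMP4 fell by 2.75 in HMLE and rose by 0.85 in MCF10A, and the BMP antagonist GREM1 rose by 2.45 in HMLE alone.

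Cell cycle genes were lower in 22 of 24 and higher in none, with a median of -0.70. Their median vector gap was 0.53 and their median Snail gap -0.13, so much of the difference lay in unequal vector levels. Of the 24, 20 fell in HMLE and 11 rose in MCF10A, and 6 differences reached 2-fold. MKI67, a marker of dividing cells, read 11.30, 11.32 and 11.28 in HMLE Snail arrays against 11.93, 12.04 and 11.97 in HMLE vector arrays, and 11.54, 11.52 and 11.55 in MCF10A Snail arrays against 11.01, 11.20 and 11.01 in MCF10A vector arrays. Its Snail levels lay between the vector levels of the lines. RRM2, a ribonucleotide reductase subunit, fell by 1.03 ± 0.06 in HMLE and rose by 0.54 ± 0.06 in MCF10A. Targets of p53 were higher in 10 of 14 and lower in 1. GDF15, a stress-induced cytokine, rose by 2.31 ± 0.07 in HMLE and fell by 1.05 ± 0.07 in MCF10A, and CDKN1A rose by 0.60 and 0.18.

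Interferon response genes were mixed, with 10 of 21 higher and 7 lower around a median of 0.15. IFITM1 rose by 1.61 in HMLE and fell in MCF10A, a response difference of 3.11, which left a Snail gap of -0.20, against a vector gap of -3.32, and BST2 fell by 1.12 in MCF10A alone. Cholesterol synthesis genes were lower in 7 of 12 and higher in 1, none by 2-fold, with SQLE falling by 0.42 in HMLE and rising by 0.33 in MCF10A. Respiratory chain genes stood near the background, with 4 of 19 higher, 3 lower and a median of 0.03.

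**Figure D5:**
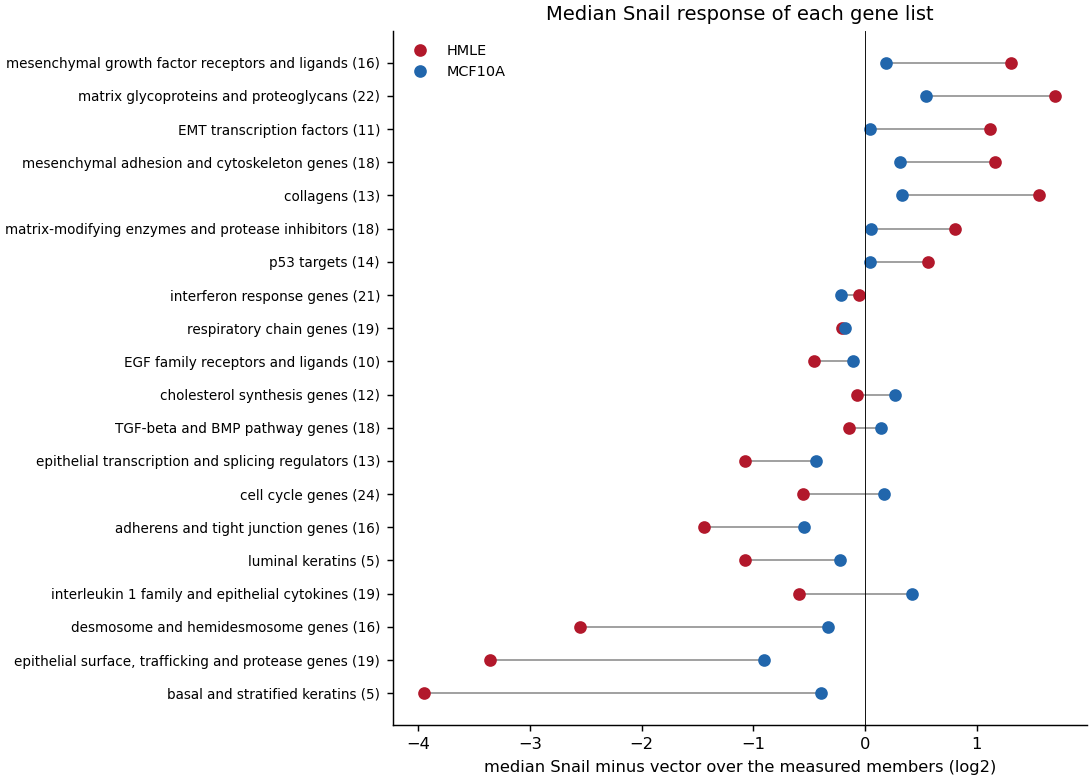
Median Snail response (log2) of each gene list, with HMLE in red and MCF10A in blue joined by a grey line, ordered by the median response difference. Junction, keratin and epithelial surface lists lie left of 0 in both lines and further left in HMLE, the mesenchymal lists lie right of 0 and further right in HMLE, and the cell cycle and cytokine medians lie below 0 in HMLE and above it in MCF10A.

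Responses of like size also existed. Of the 198 genes that changed 2-fold in both lines, 99 (50%) had a called response difference, and 77 had a difference whose 95% interval stayed within 2-fold. Of the 77, 39 rose in both lines and 38 fell, and 32 had unequal vector levels. ANKRD1, a target of mechanical and TGF-beta signals, read 11.37, 11.36 and 11.35 in HMLE Snail arrays against 7.96, 8.11 and 7.91 in HMLE vector arrays, and 9.95, 9.58 and 9.87 in MCF10A Snail arrays against 6.55, 6.62 and 6.79 in MCF10A vector arrays. The rises were 3.37 ± 0.12 and 3.14 ± 0.12, a difference of 0.23 (95% interval -0.13 to 0.58), although it began 1.34 higher in HMLE. CCN2, a matricellular protein, rose by 2.14 and 1.97 (interval of the difference 0.03 to 0.31), and the proteoglycan VCAN by 1.76 and 1.57 (-0.27 to 0.64). The matrix protein SPARC rose by 1.21 and 1.12 (-0.04 to 0.22).

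Markers of other cell types were read in the same arrays. Fibroblast markers, several of which are also EMT genes, were higher in 9 of 12 and lower in 1, and rose in HMLE in 10 and in MCF10A in 4. Their summed log2 level was 120.27 to 120.35 in HMLE Snail and 88.99 to 90.04 in HMLE vector arrays, and 93.59 to 94.83 in MCF10A Snail and 89.74 to 90.92 in MCF10A vector arrays. Most of these markers are also members of the collagen, matrix, mesenchymal, growth factor or EMT factor lists above. Their sum therefore had to move with those lists and is no separate reading. The part of other cells in those results was not tested. FAP, a fibroblast protease, went the other way, falling by 0.35 in HMLE and rising by 1.68 in MCF10A, and TCF21 did not pass the test in either line. Endothelial markers summed to 70.1 to 71.52 in HMLE Snail, 69.16 to 70.48 in HMLE vector, 69.25 to 70.6 in MCF10A Snail and 70.09 to 71.59 in MCF10A vector arrays, and 1 of 10 (PECAM1) passed the test. Of 10 leukocyte markers CD14 was higher and CSF1R lower, and the defining markers PTPRC, CD3E and CD79A did not pass the test.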

How the data were processed

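Biotin-labelled total RNA was measured on Affymetrix Human Gene 1.0 ST arrays. The authors deposited log2 values of 33297 probe sets, which they computed with RMA (which corrects background, equalises array distributions and summarises probes), per the submitters' processing notes. That the scale is log2 was inferred from the values' range. The sources used here give no RMA version and do not say whether all 18 arrays were normalized together. RMA compresses dim differences, so low values do not show absence.

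Groups came from sample titles. Of the probe sets, 19460 had 1 symbol in the platform annotation, 1754 had several and 12083 had none; symbols were updated by gene ID (19429 matched). Each of 18417 genes was represented by its brightest probe set, 769 having more than 1. The 6 group means (HMLE or MCF10A with Snail, vector or Twist) were fitted to all 18 arrays with limma 3.58.1 in R 4.3.3, with 12 residual degrees of freedom, and p-values were adjusted by Benjamini-Hochberg over all genes. The fit was tested on simulated data. Calls needed an adjusted p under 0.05 and a log2 difference of at least 1, and a start was unequal at a vector gap of at least 1.

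The genes and the 24 lists (344 of 374 entries measured) were chosen with earlier results of these data known. The text names the extremes of each class by size among genes whose array differences did not overlap, fixed marker genes and list members. Replicate numbers were not used as pairs. The deviations of same-numbered arrays correlated between -0.381 and 0.335, which does not exclude a pairing. In 1 of 6 pairs of groups, HMLE Snail with MCF10A Snail, every array correlated best with its own number. Alternatives covered normalization, centring, variance model, array weights, probe set choice, a filter on dim genes, the arrays in the fit, the limits and each array left out in turn.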

Additional observations from a re-analysis of the deposited data

Results flagged for a closer look

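The test of the difference between lines passed both limits for 1587 genes. Among those that moved in opposite directions in HMLE and MCF10A, the lowest response differences (log2, HMLE minus MCF10A) were those of MFAP5 at -7.20, IL1A at -6.85, SPP1 at -5.43, PLD5 at -4.43 and KCNJ15 at -4.03. The highest were those of TMPRSS15 at 5.67, SNORD114-3 at 5.23, MGP at 4.75, SERPINF1 at 4.62 and ID2 at 4.47. In each of these 10 genes every HMLE array difference lay on the other side of 0 from every MCF10A one. They were picked from genes whose array differences did not overlap, so this is no separate support.

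In data outside the comparison, the 3 arrays labelled MCF10A Twist gave an MTAP level of 10.80 ± 0.03, against 5.98 ± 0.36 in MCF10A vector arrays (SD, n = 3 each). HMLE vector arrays stood at 10.26 ± 0.04.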

How the results depend on the processing

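Quantile normalization, median centring, array weights, another variance model (trended, robust), averaging of probe sets, the 12 Snail and vector arrays alone, an adjusted p under 0.01 and the fit without the arrays labelled MCF10A Twist kept every count within 1.5 times. The replicate number as a block gave 1588 called genes, against 1587, although it is not known whether the numbers pair the samples. A filter on dim genes left 40 called genes past the test in MCF10A alone, against 63. A 1.5-fold limit called 3528 genes (1798 higher, 1730 lower), with 2725 of like start, 78 narrowed, 174 widened, 728 opposite, 650 larger in HMLE, 65 larger in MCF10A, 1864 in HMLE alone and 203 in MCF10A alone. With a gap limit of 0.5 the classes held 652 of like start, 89 narrowed, 208 widened and 272 crossed, and with 1.5 they held 220 met, 25 narrowed, 56 widened and 11 crossed. Requiring the interval of the vector gap to clear the limit left 909 of like start, 270 met, 82 widened and 39 crossed, with 239 undecided. These classes therefore depend on where the limit is set. Leaving out each array in turn gave 1569 to 1637 called genes (827 to 865 higher, 722 to 789 lower), 1021 to 1073 of like start, 333 to 352 met, 44 to 50 narrowed, 103 to 110 widened, 61 to 64 crossed, 286 to 356 opposite, 356 to 412 larger in HMLE, 23 to 29 larger in MCF10A, 742 to 843 in HMLE alone and 58 to 72 in MCF10A alone. Among single genes, the response differences of MTAP, CDKN2A, CDKN2B and KRT15 lost the adjusted p in some settings, and that of CCN2 gained it. The number of arrays and the compression of dim values limit the precision.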
